A study of Mus musculus with 12 samples.

Results

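The constitutive proteasome and the enzymes that activate and conjugate ubiquitin and its relatives were followed in mouse heart by 85 probe sets of 64 genes, out of 12422 probe sets on the array that are no controls. They were taken by symbol: every probe set with exactly 1 gene symbol that starts with Psma, Psmb, Psmc, Psmd, Ube2 or Uba, without the immunoproteasome subunits Psmb8, Psmb9 and Psmb10. The rule used no measured value, but it was chosen with earlier results of these data known. It also brings in a few genes that only share the prefix: Ubap1, Ubap2, Ubap2l, Ubac1, Ubac2 and Psmc3ip, a factor of meiotic recombination, were kept apart as other genes.

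Cardiac muscle of male NMRI mice aged 10 to 15 weeks was measured on Affymetrix MG_U74Av2 arrays in 4 conditions at weeks 1, 3 and 5, with 1 array for each condition and week. Diabetic trained mice had 1 injection of streptozotocin at 180 mg/kg, a toxin of insulin-producing beta cells. They ran on a treadmill for 1 h a day on 5 days a week at 21 m/min and an incline of 2.5 degrees. Diabetic sedentary mice had the injection and did not run, healthy trained mice had buffer and ran, and healthy sedentary mice had buffer and did not run. The mice were killed 24 h after they last ran, and each array holds the pooled RNA of 5 mice. The 3 weeks therefore serve as the replicates of a condition. Every p-value for conditions measures how far an effect varied between pools of different weeks, not between animals. In comparisons of weeks the 4 conditions serve as the replicates. Their p-values measure how far the difference of 2 weeks varied between conditions. No week was repeated, so these p-values do not cover how far repeats of a week would differ. The model is a toxin-induced loss of insulin in 1 outbred stock and 1 sex.

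Values are signal intensities on a linear scale, comparable between arrays for 1 probe set but not between probe sets. The diabetic trained array of week 3 had a median signal of 25.4, against 16.6 to 20.4 for the other 11, and correlated with the other arrays at a mean r of 0.785, against 0.900 to 0.931 for the rest. It had a chip lot and a run day of its own, and a note with it records a second labelling of the same RNA after high background, so counts are given with and without it. For a single member, the log2 difference without it follows, as the value without the array, wherever it differs by over 1.5 times or in sign. The 4 arrays of week 1 shared 1 run day, 3 arrays of week 3 another and the 4 of week 5 yet another, so that run day and week cannot be told apart. The week 5 arrays also had a lot to themselves, which cannot be told apart from the week either. Each condition had its own fluidics module, and these cannot be told apart either. The label of cardiac muscle was checked on 8 cardiomyocyte markers, all of which passed the filter, and their summed signal was 19975 to 28294.

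In this pathway an activating enzyme loads ubiquitin onto a conjugating enzyme, which works with a ligase to tag a protein, and the tagged protein is degraded by the proteasome. The proteasome has a barrel-shaped 20S core, with outer alpha rings that gate it and inner beta rings that cut, and a 19S regulatory particle, whose ATPases unfold the substrate and whose other subunits bind and remove ubiquitin. In the heart the system clears damaged and worn sarcomere proteins and is studied in atrophy, hypertrophy and diabetic heart disease.

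Of the 85 probe sets, 69 passed the filter on dim values and were tested, which is 81.2% of them, against 60% of all probe sets. The tested probe sets cover 7 of 7 for the alpha ring, 10 of 12 for the beta ring, 7 of 9 for the ATPases, 15 of 16 for the other 19S subunits, 2 of 4 for activating enzymes, 23 of 29 for conjugating enzymes and 5 of 8 for the other genes. The other 19S subunits were taken by the Psmd prefix. They include Psmd5, Psmd9 and Psmd10, which are assembly chaperones, also where core and regulatory particle are counted together. For 9 genes no probe set was tested: the ATPase Psmc4, the scaffold subunit Psmd2, Uba1y, the conjugating enzymes Ube2l6, Ube2t, Ube2v2 and Ube2w, Psmc3ip and Ubac2. Uba1y, a Y-linked relative of the main ubiquitin-activating enzyme, was dim on both probe sets, at a mean signal of 3.83 and 4.38 over 12 arrays. Its X-linked counterpart Uba1 has no probe set under the rule and was not analysed here. Among the tested members, mean signals over 12 arrays ran from 65.7 (Psma1) to 531 (Psma3) in the alpha ring and from 18.1 to 378 (both Psmb4) in the beta ring. They ran from 64.3 (Psmc3) to 434 (Psmc6) for the ATPases and from 15.7 (Psmd10) to 277 (Psmd11) for the other 19S subunits. Uba7 averaged 44.0 and Uba3 58.5, and the conjugating enzymes ran from 13.7 (Ube2d2a) to 411 (Ube2b). Where a gene has several tested probe sets, they are called brighter and dimmer by their mean signal, which is no measure of amount. The dimmer Ube2d2a probe set, at a mean of 13.7, was the only tested member under 13.8, the highest single signal of the 19 control probe sets for bacterial and yeast transcripts that were not spiked in.

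Across the 12 arrays the proteasome subunits stood higher at week 5 than at week 1 in each condition, and lowest on the diabetic trained array of week 3. Each array was set, on the log2 scale, against the same mean over the 11 arrays without the diabetic trained array of week 3. The median deviation of the 39 tested core and regulatory particle probe sets was, at week 5, 0.16 (diabetic trained), 0.08 (diabetic sedentary), 0.19 (healthy trained) and 0.17 (healthy sedentary). It was -0.16, -0.07, -0.07 and -0.05 on the week 1 arrays in the same order. At week 3 it was -0.51 on the diabetic trained array and -0.00 (diabetic sedentary), -0.03 (healthy trained) and -0.15 (healthy sedentary) on the others. All 4 arrays of week 5 were above 0 and all 4 of week 1 below it, in each condition. The same median over all 7453 tested probe sets stayed between -0.11 and 0.05 on every array.

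**Figure D1:**
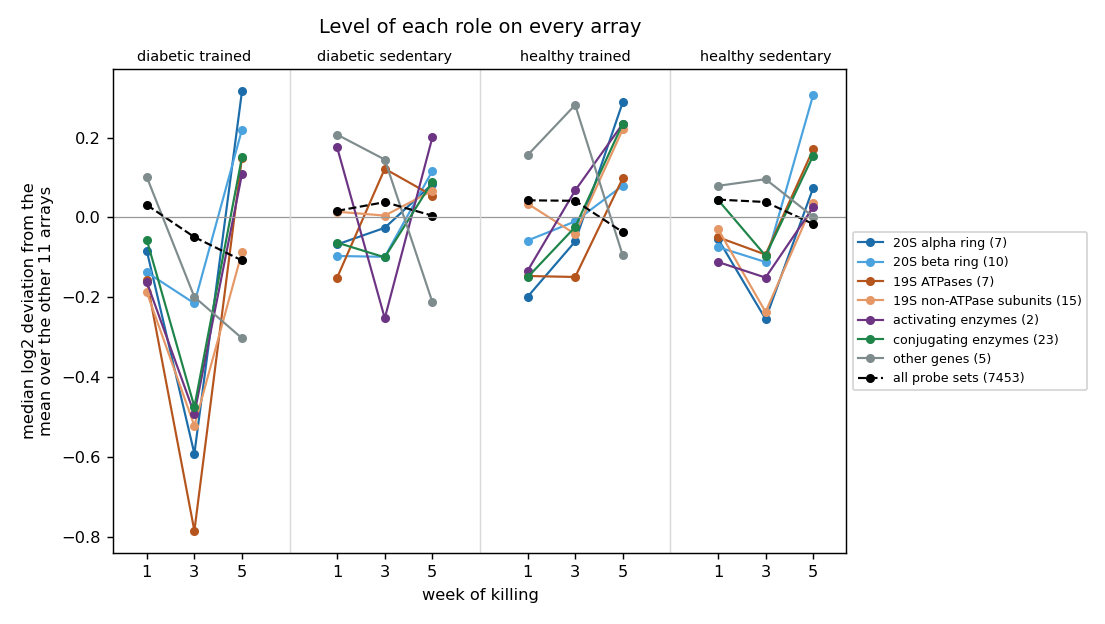
Median log2 deviation of each group of members (y axis) on each array by week of killing (x axis), in 4 blocks for the conditions. Every array is set against the same mean over the 11 arrays without the diabetic trained array of week 3. The dashed line is the median of all 7453 tested probe sets, and the legend gives the number of probe sets per group. The diabetic trained array of week 3 is low for the ATPases (-0.79) and the alpha ring (-0.59), and the alpha ring is above 0 on all 4 arrays of week 5.

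Diabetes changed no member past the threshold. Diabetic hearts, over both training states, had 0 of 69 members called at an adjusted p under 0.05, against 0.765% of all tested probe sets. At an unadjusted p under 0.05 there were 3 members, 4.35% against 11.8%. Without the diabetic trained array of week 3 the count was again 0, against 2.05% of all probe sets, with 5 members at an unadjusted p under 0.05 (7.25%, against 15.6%). None of the 69 tested members was without overlap between diabetic and healthy arrays, against 0.389% (higher) and 0.617% (lower) of all probe sets, and 1 had the same sign in all 6 pairs (1.45%, against 8.67%). For every one of the 85 probe sets the range of signals of the 6 diabetic arrays overlapped that of the 6 healthy arrays. The median log2 difference over members was -0.06, beside -0.02 over all tested probe sets, with 53 of 69 members below 0. Without the array above, 39 of 69 were below 0 and 30 above, and the median for the 39 core and regulatory particle probe sets was 0.01, against -0.06 with it.

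Psmd5, a chaperone in the assembly of the 19S base, had the smallest unadjusted p for diabetes. Its signals on the 6 diabetic arrays had a lowest, median and highest value of 23.4, 55.3 and 68.1, against 51.2, 76.5 and 95.6 on the 6 healthy arrays. The groups overlapped, and diabetic hearts were lower in 5 of 6 pairs of the same week and training state (log2 difference -0.65, SE 0.20, adjusted p = 0.200); the sedentary pair of week 5 was higher, at 0.37 on the log2 scale. Psmd10, or gankyrin, another assembly chaperone, was dim and lower in 6 of 6 pairs (log2 difference -0.52, SE 0.26, adjusted p = 0.475, and -0.32 without the array). Its diabetic trained signals at weeks 1, 3 and 5, 13.1, 5.10 and 13.6, were under 13.8, the highest control signal, so that its size is not exact. The lid subunit Psmd3 differed by -0.19, SE 0.10. Among the ATPases, which form the unfolding ring, Psmc2 (-0.31, SE 0.17, and -0.13 without the array), Psmc3 on the dimmest probe set (-0.13, SE 0.14) and Psmc1 (-0.10, SE 0.14, and 0.03 without the array) came first, and none passed.

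In the core, the chymotrypsin-like catalytic subunit Psmb5 gave opposite values on its probe sets. On the brighter probe set its signals were 82.3, 167 and 215 (lowest, median, highest) in diabetic hearts, against 159, 172 and 269 in healthy hearts (log2 difference -0.32, SE 0.14, adjusted p = 0.419). On the dimmer probe set they were 28.2, 38.9 and 104.5 in diabetic hearts, against 21.8, 31.4 and 41.0 in healthy hearts (log2 difference 0.46, SE 0.23, adjusted p = 0.488). Both extremes in diabetic hearts, 82.3 on the first and 104.5 on the second, came from the diabetic trained array of week 3, and without it the differences were -0.18 and 0.22. Psmb7, the trypsin-like subunit, averaged 189.6 ± 32.9 in diabetic and 208 ± 25.6 in healthy hearts (SD, n = 6 each; log2 difference -0.14, SE 0.09, adjusted p = 0.614). Psmb6, the caspase-like subunit, averaged 185 ± 21.9 in diabetic and 193 ± 55.9 in healthy hearts (log2 difference -0.02, SE 0.12, adjusted p = 0.959, and 0.01 without the array). In the alpha ring the smallest p-values were those of Psma4 (-0.26, SE 0.15, and -0.11 without the array), Psma5 (-0.13, SE 0.11, and -0.06 without the array) and Psma2 (0.07, SE 0.13, and 0.19 without the array), all with adjusted p-values of 0.565 or more.

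Among conjugating enzymes Ube2f, which carries NEDD8 rather than ubiquitin, had signals of 6.10, 14.7 and 20.4 in diabetic hearts, against 14.4, 18.1 and 25.8 in healthy hearts (log2 difference -0.52, SE 0.23, adjusted p = 0.401). The groups overlapped at low signal, and 4 of 6 pairs were lower in diabetic hearts, among them all 3 pairs of trained mice. Ube2z on the brighter probe set (0.30, SE 0.15), an enzyme charged by an alternative activating enzyme, was higher in 5 of 6 pairs, at an adjusted p of 0.474. Ube2n (-0.24, SE 0.14, and -0.12 without the array), which builds chains used in signalling, was lower in 5 of 6 pairs, at an adjusted p of 0.563. Uba3, the catalytic subunit of the NEDD8-activating enzyme, differed by -0.26, SE 0.19, and Uba7, which activates the ubiquitin-like ISG15, by 0.14, SE 0.20. In the other genes Ubap2l on the brighter probe set (-0.26, SE 0.15), Ubac1 (-0.22, SE 0.16) and Ubap1, a subunit of an endosomal sorting complex (-0.13, SE 0.12), did not pass either.

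**Figure D2:**
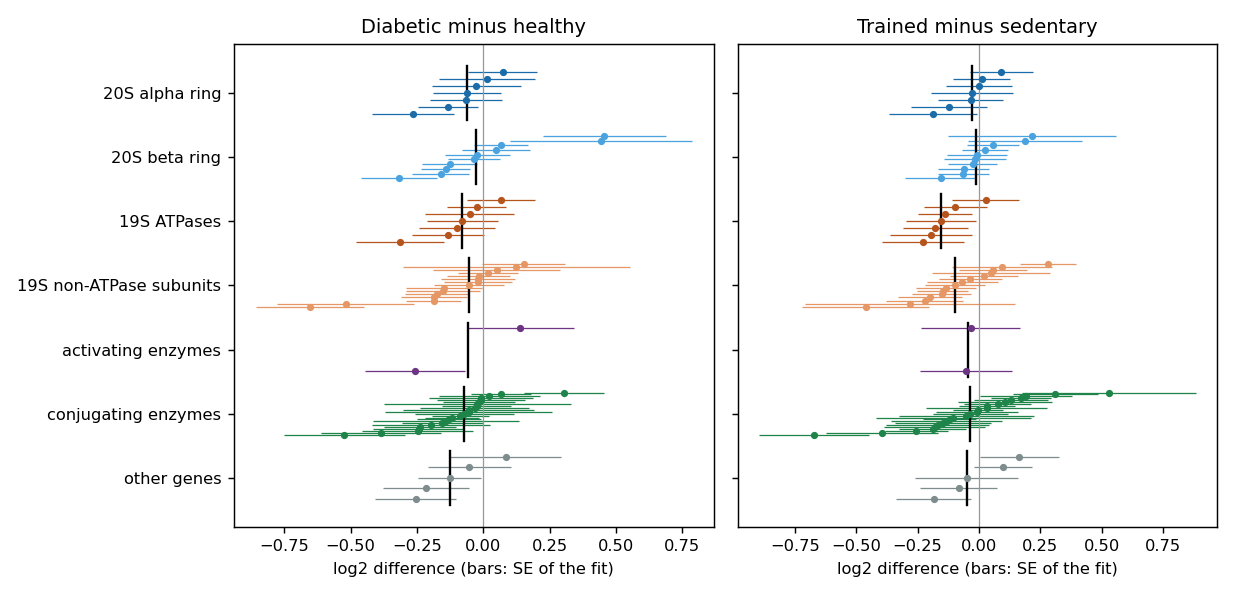
Log2 difference of each of the 69 tested members (points, bars are the SE of the fit) for diabetic minus healthy hearts (left) and trained minus sedentary hearts (right), 1 row of points per group of members, with a vertical bar at the group's median. None passed an adjusted p of 0.05, and the medians of all 7 groups lie between -0.16 and -0.01 in both panels.

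Training also changed no member past the threshold. Over both disease states 0 of 69 members were called, against 0% of all tested probe sets, and 2 had an unadjusted p under 0.05 (2.9%, against 3.45% of all). None was without overlap between trained and sedentary arrays, against 0.0537% (higher) and 0.0671% (lower) of all, and 1 had the same sign in all 6 pairs (1.45%, against 2.36%). The median over members was -0.05, beside -0.02 over all probe sets, and 3 members without the diabetic trained array of week 3 had an unadjusted p under 0.05 (4.35%, against 5.61%), where the median was -0.00, with 34 members above 0 and 35 below. Ube2h, a conjugating enzyme with a yeast relative that ubiquitinates gluconeogenic enzymes, had the smallest p on the dimmer probe set. Its signals were 15.0, 36.0 and 53.8 (lowest, median, highest) in trained hearts, against 29.6, 53.1 and 61.1 in sedentary hearts, with overlap and 5 of 6 pairs lower (log2 difference -0.67, SE 0.22, adjusted p = 0.998). Its brighter probe set differed by -0.25, SE 0.13, with 5 of 6 pairs lower as well.

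Psmd8, a subunit of the 19S lid, had signals of 70.9, 87.8 and 96.7 in trained hearts, against 60.1, 69.0 and 82.3 in sedentary hearts, and was higher in 5 of 6 pairs (log2 difference 0.28, SE 0.11, adjusted p = 0.998). Psmd10 (-0.46, SE 0.26, and -0.27 without the array) and Psmd11 on the brightest probe set, a lid subunit that holds the particle to the core (-0.20, SE 0.13, and -0.13 without the array), followed. The Psmd10 size is again not exact, since its diabetic trained signals were under the highest control signal. Ube2a, which ubiquitinates histone H2B, was higher in 5 of 6 pairs (0.31, SE 0.17, and 0.20 without the array). The ATPases Psmc2 (-0.23, SE 0.17, and -0.04 without the array), Psmc3 on the brightest probe set (-0.18, SE 0.13, and -0.05 without the array) and Psmc5 (-0.14, SE 0.11) had the smallest p-values of their group, whose median was -0.16, and -0.03 without the array. In the alpha ring these were Psma6 (-0.19, SE 0.18, and -0.00 without the array), Psma4 (-0.12, SE 0.15, and 0.03 without the array) and Psma1 (0.09, SE 0.13, and 0.04 without the array). In the beta ring these were Psmb5 on the brighter probe set (-0.16, SE 0.14, and -0.02 without the array) and on the dimmer probe set (0.19, SE 0.23, and -0.05 without the array) and Psmb4 on the dimmer probe set (0.21, SE 0.34, and 0.03 without the array). The Psmb4 size is not exact, since its healthy trained signal of week 1, 3.4, was under the highest control signal. Uba3 (-0.05, SE 0.19, and -0.02 without the array), Uba7 (-0.03, SE 0.20, and 0.02 without the array), Ubap2l on the brighter probe set (-0.18, SE 0.15), Ubac1 (0.16, SE 0.16) and Ubap1 (0.10, SE 0.12) did not pass either. All adjusted p-values for training were 0.998 or more.

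Single conditions gave no call either. Diabetic trained against healthy trained hearts had 0 members called, against 0.0268% of all probe sets, and 10 members at an unadjusted p under 0.05 (14.5%, against 10.5% of all). With that condition's week 3 array left out, 0 were called (0.0671% of all) and 3 had an unadjusted p under 0.05 (4.35%, against 8.82%). Ube2f had the smallest p here. Its signals at weeks 1, 3 and 5 were 6.10, 9.60 and 13.2 in diabetic trained hearts, against 14.4, 25.8 and 19.8 in healthy trained hearts, without overlap. All 3 diabetic trained signals were under 13.8, the highest control signal named above, so that they were at least 1.41-fold lower and no exact size is given (adjusted p = 0.388). The next were both Psmb5 probe sets, again in opposite directions (0.96 and -0.60), and Ube2z on the dimmer probe set (-0.90, SE 0.32); without the week 3 array these were 0.49, -0.32 and -0.54.

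Diabetic sedentary against healthy sedentary hearts had 0 members called, against 0.0537% of all probe sets, and 2 at an unadjusted p under 0.05 (2.9%, against 7.33% of all). Without the diabetic trained array of week 3, 0 were called, against 0.805%, and 5 had an unadjusted p under 0.05 (7.25%, against 13.6%). Psmd5 (-0.68, SE 0.29), Psmd4, a ubiquitin receptor of the 19S particle (0.50, SE 0.22), Ube2a (-0.47, SE 0.24) and the scaffold subunit Psmd1 (-0.30, SE 0.17) had the smallest p-values, with adjusted p-values of 0.618 to 0.792. Psmd4 gave 276, 343 and 230.5 at weeks 1, 3 and 5 in diabetic sedentary hearts, against 203, 191 and 201 in healthy sedentary hearts, higher in each of the 3 pairs.

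In trained against sedentary hearts within a disease state the counts were likewise 0, against 0% of all probe sets in diabetic and 0% in healthy hearts. At an unadjusted p under 0.05 there were 8 members in diabetic hearts (11.6%, against 7.15% of all; 3 and 5.09% without the week 3 array) and 1 in healthy hearts (1.45%, against 2.04%; 2 and 4.84% without it). Healthy trained hearts had Psmd8 at 96.7, 75.9 and 91.3 at weeks 1, 3 and 5, against 72.9, 60.1 and 67.0 in healthy sedentary hearts, higher in each week (log2 difference 0.40, SE 0.16, adjusted p = 0.999). Ubac1 (0.42, SE 0.23), Psmb2 (0.27, SE 0.15) and Ube2s (0.27, SE 0.17) were higher in each week too and did not pass. Diabetic trained hearts had Ube2h on the dimmer probe set at 53.8, 19.2 and 15.0, against 58.3, 54.3 and 48.1 in diabetic sedentary hearts, lower in each week and by least at week 1 (log2 difference -1.10, SE 0.32, adjusted p = 0.665). Ube2f (at least 1.29-fold lower, since its diabetic trained signals were under that control signal), Psmd4 (-0.57, SE 0.22, and -0.24 without the array) and Psmd7, the partner of the deubiquitinase Psmd14 in the lid (-0.42, SE 0.17, and -0.21 without the array), followed, all with an adjusted p of 0.665. The test of whether diabetes and training interact called 0 members, against 0% of all probe sets, and 5 had an unadjusted p under 0.05 (7.25%, against 4.31% of all; 3 and 4.64% without the week 3 array). Its smallest p-values were those of Psmb4 on the dimmer probe set (1.70, SE 0.68), Ube2f, with no size given because of those signals, Ube2z on the dimmer probe set (-1.03, SE 0.45, and -0.67 without the array) and Psmd7 (-0.54, SE 0.24, and -0.33 without the array), with an adjusted p of 0.859. The Psmb4 size is not exact. Its week 1 signals in healthy trained, diabetic sedentary and healthy sedentary hearts, 3.4, 8.9 and 12, were under that control signal. The healthy trained signal was also below the floor to which low values were raised. The share of members with the same sign in all 3 weeks was 36.2% for diabetic trained against healthy trained (29% of all probe sets) and 23.2% for diabetic sedentary against healthy sedentary (35.6%). It was 26.1% for diabetic trained against diabetic sedentary (22%) and 26.1% for healthy trained against healthy sedentary (24.8%). These comparisons share arrays, so their values are not independent of each other.

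The diabetic trained array of week 3 stood apart within the pathway. On it, 32 of 69 tested members had their lowest signal of all 12 arrays, 46.4% against 28.1% of all tested probe sets. For 8 it was their highest, 11.6% against 28.2%. The tested members had higher signals to begin with: the median of their mean signals was 96.1, against 44.9 over all tested probe sets. The median signal of this array, 25.4, was the highest of the 12. The median deviation from the other 11 arrays was -0.59 for the alpha ring, -0.22 for the beta ring (10 probe sets), -0.79 for the ATPases, -0.52 for the other 19S subunits and -0.47 for the conjugating enzymes, and -0.05 over all probe sets. Psma3, an alpha subunit, had a signal of 248.5 there, against 366.5 to 817 on the other arrays. Psmc2 had 78.8, against 165 to 216, and Psmd7 had 141, against 194 to 306. Among the 8 highest, Psmd11 on the dimmest probe set had 80.7 there, against 5.70 to 42.2, and Psmb4 on the dimmer probe set had 58.9, against 3.40 to 22.7. Psmd9, another assembly chaperone, had 197 there, against 59.4 to 118, and Ube2o, a large enzyme that combines conjugating and ligase activity, had 179 on the brighter probe set, against 51.3 to 109. The part of the second labelling, of the lot and of the members' higher signals in these values was not tested.

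**Figure D3:**
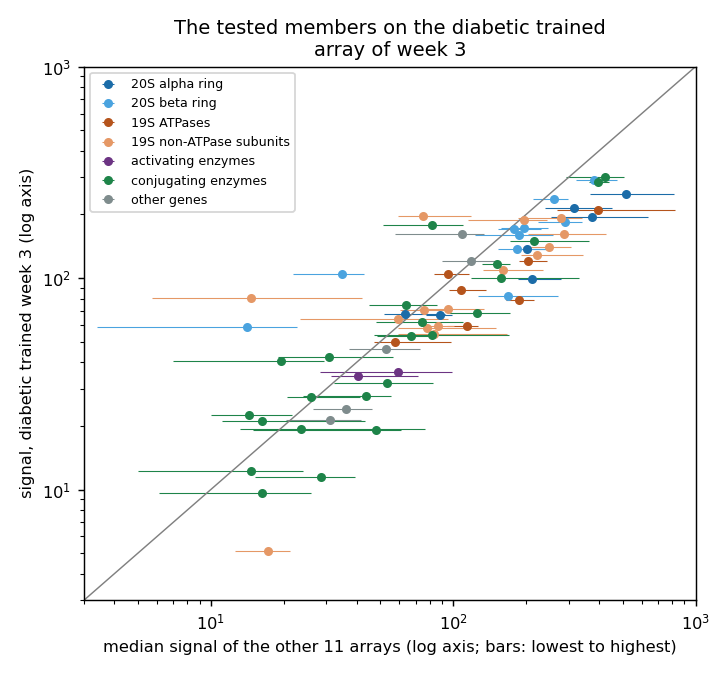
Signal on the diabetic trained array of week 3 (y axis, log) against the median of the other 11 arrays (x axis, log) for the 69 tested members, coloured by group, with horizontal bars from the lowest to the highest of the other 11 arrays; the line marks equal values. Most members lie below the line, and 32 of 69 lie below all 11 other arrays.

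Of the 9 comparisons, that of week 5 with week 1 was the only one with member calls. At week 5, 23 of 69 members (21 genes) passed the threshold against week 1, which is 33.3% of the tested members against 15.4% of all tested probe sets, with 17 higher and 6 lower. Higher calls made up 24.6% of members against 8.47% of all probe sets, and lower calls 8.7% against 6.9%. Without the diabetic trained array of week 3 the count was 34 (49.3%, against 32.3% of all), 26 higher and 8 lower, and all 23 were among the 34. The median over members was 0.17 on the log2 scale, beside -0.10 over all probe sets, and 38 members had an unadjusted p under 0.05 (55.1%, against 32.6% of all; 41 members and 45.4% without that array). In all, 43 of 69 members had the same sign in all 4 conditions (62.3%, against 49.1% of all). The median over members stood 0.27 above that of all probe sets. Quantile normalization reduced that gap to 0.15, with medians of 0.12 over members and -0.03 over all and with 16 higher and 4 lower calls. On log2(signal + 16) the gap was 0.21, with 19 higher and 4 lower calls. Centring the arrays on their medians, which shifts all probe sets of an array alike, moved the median of all to 0.07 and gave 18 higher and 0 lower calls, so that the number of lower calls depends on the scaling.

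The count at week 5 depended on single arrays. It was 4 (5.8%, against 3.7% of all) without the healthy trained array of week 1 and 5 (7.25%, against 3.65% of all) without that of week 5. Without the diabetic trained arrays it was 12 (17.4%, against 6.84% of all) for week 1 and 6 (8.7%, against 4.92% of all) for week 5. It was 9 (13.0%, against 6.29% of all) without the diabetic sedentary array of week 1. Without the healthy sedentary arrays it was 15 (21.7%, against 9.96% of all) for week 1 and 11 (15.9%, against 7.23% of all) for week 5. The share of members was above that of all probe sets in each of these fits, while both shares fell. Ube2e1, Psmc6 and Psmd14 passed in all 12 fits that leave out 1 array and in all 8 other settings, and no called member changed its sign in any of them. Of the 12 fits, Psmd12 passed in 11, Psmb1, Ube2s and the brighter Ube2d3 probe set in 9 each, Psmd3 and Uba3 in 8 each, and Psmb6 and Ubap2 in 7 each. Psmd6, Ube2g1, Ube2a, the dimmer Ube2d3 probe set and the brightest of Psmd11 passed in 6 each and Psmc3 in 5; the 6 least stable calls are given with their values below. At week 3 against week 1, where 7 of 8 arrays share a lot and no run day is shared between the weeks, 0 members passed, against 0% of all probe sets, and 4 had an unadjusted p under 0.05 (5.8%, against 7.11% of all; 7 members and 6.76% without the diabetic trained array of week 3). The same sign in all 4 conditions was found for 11 members (15.9%, against 14.3%).

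Sample measures that differed at week 5 stand here beside the counts. The median signal of an array was 16.6 to 17.9 at week 5, against 19.2 to 19.9 at week 1. The ratio of 3' to 5' actin signal was 2.52, 2.14, 2.32 and 2.11 on the week 5 arrays of diabetic trained, diabetic sedentary, healthy trained and healthy sedentary hearts, against 1.96, 1.75, 2.46 and 1.70 on those of week 1. The same ratio for Gapdh was 1.19, 1.14, 1.05 and 1.04 at week 5, against 1.25, 1.22, 1.21 and 1.11 at week 1, lower in each condition. Actin 3' signal was 892 to 1334 at week 5, against 2019 to 2696 at week 1. Summed signals of 8 cardiomyocyte markers were 19975 to 22044 at week 5, against 21118 to 27585 at week 1, with 0 of 8 called. Those of 7 fibroblast markers were 3330.3 to 3584 against 2991 to 3345, with 1 higher and 1 lower. The median log2 difference over these 7 markers was -0.21, below 0, while their sums were mostly higher. The 5 markers of proliferating cells, of which 2 were tested, summed to 37.0 to 69.2 at week 5, against 71.2 to 112 at week 1, with 1 called lower. Theirs was the only one of 9 marker lists whose week 5 and week 1 sums did not overlap. The 3 lung markers summed to 24.1 to 36.5 at week 5, against 33.8 to 239 at week 1, with 1 of 2 tested called lower. The 8 endothelial markers summed to 984 to 1219.5 at week 5, against 1102 to 1582 at week 1, with 1 higher and 1 lower. The 8 macrophage and neutrophil markers, of which 5 were tested, summed to 453.9 to 668.1, against 400.3 to 478.8, with 0 called. The 2 red cell markers summed to 2183.8 to 2372.9, against 2263.1 to 3645.6, with 0 called. The part of these differences in the member calls was not tested, and in whole tissue fewer cells of a type and less RNA per cell cannot be told apart.

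The promoters of 5 genes named in the week 5 results are shown. Psmc6, Psmd14 and Ube2e1 were taken because their calls held in every fit. Psmb6 was taken as a catalytic subunit whose promoter holds the antioxidant response element core, so that match is no result. Psmd11 was taken as a lid subunit called lower. All were chosen after their values were seen. They are 300 bases each, 250 before and 50 after the annotated start, read 5' to 3' on the gene's strand, from RefSeq on GRCm38.p6: Psmc6 at chr14:45329574-45329873 (forward strand), Psmd14 at chr2:61711444-61711743 (forward strand), Ube2e1 at chr14:18331795-18332094 (reverse strand), Psmb6 at chr11:70525107-70525406 (forward strand) and Psmd11 at chr11:80428365-80428664 (forward strand). Capitals mark the core of the antioxidant response element, TGACNNNGC, in Psmc6 and Psmb6 and the CCAAT box in Psmd14 and Ube2e1, searched on both strands, so that they also appear as their reverse complements; CCAAT boxes overlap in Psmd14.
Psmc6: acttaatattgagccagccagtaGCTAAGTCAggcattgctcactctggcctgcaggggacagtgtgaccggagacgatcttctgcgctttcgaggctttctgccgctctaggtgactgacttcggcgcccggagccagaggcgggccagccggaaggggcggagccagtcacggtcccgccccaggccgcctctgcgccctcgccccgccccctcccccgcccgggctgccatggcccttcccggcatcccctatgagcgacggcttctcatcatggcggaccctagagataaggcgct
Psmd14: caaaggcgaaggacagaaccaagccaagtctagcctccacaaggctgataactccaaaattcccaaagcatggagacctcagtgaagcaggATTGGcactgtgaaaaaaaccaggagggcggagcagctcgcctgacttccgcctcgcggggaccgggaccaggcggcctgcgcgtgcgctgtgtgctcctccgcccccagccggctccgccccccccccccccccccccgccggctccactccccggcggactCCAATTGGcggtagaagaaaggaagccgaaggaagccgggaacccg
Ube2e1: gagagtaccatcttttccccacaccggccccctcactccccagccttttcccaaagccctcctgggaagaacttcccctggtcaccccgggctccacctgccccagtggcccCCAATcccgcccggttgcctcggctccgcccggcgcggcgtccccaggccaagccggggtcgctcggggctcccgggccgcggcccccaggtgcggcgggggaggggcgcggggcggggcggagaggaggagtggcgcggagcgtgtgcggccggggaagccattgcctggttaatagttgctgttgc
Psmb6: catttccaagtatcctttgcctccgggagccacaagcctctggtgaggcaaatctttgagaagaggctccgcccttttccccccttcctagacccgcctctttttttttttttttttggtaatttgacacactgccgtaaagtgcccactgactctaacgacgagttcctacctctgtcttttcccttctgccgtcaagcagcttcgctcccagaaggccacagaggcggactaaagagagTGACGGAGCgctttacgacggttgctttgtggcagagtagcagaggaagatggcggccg
Psmd11: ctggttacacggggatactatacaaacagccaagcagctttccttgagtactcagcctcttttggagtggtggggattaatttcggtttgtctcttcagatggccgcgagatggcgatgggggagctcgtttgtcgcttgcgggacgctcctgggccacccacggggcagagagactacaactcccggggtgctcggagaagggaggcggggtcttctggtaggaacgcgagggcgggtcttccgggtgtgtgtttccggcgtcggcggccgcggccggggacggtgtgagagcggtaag
Of 64 member genes 53 matched the promoter table by Entrez gene identifier, with 62 promoters. The antioxidant element core was in 8 of these (12.9%, against 12.4% of all 32851 promoters), the CCAAT box in 20 (32.3%, against 37.4%) and the heat shock element core GAANNTTC in 1 (1.61%, against 7.86%). For the proteasome subunits, again taken by prefix, 5 of 30 promoters held the antioxidant core (16.7%), among them that of the assembly chaperone Psmd9. A match is a run of letters and not a shown binding site, and the shares for the 2 commoner motifs are near those of all promoters.

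Within the core, the alpha ring had 1 of 7 probe sets higher and 0 lower at week 5, with 6 of 7 above 0 and a median of 0.43. Psma6 had 636, 466, 575 and 496 at week 5 in diabetic trained, diabetic sedentary, healthy trained and healthy sedentary hearts, against 333, 373, 253 and 351 at week 1. That order holds for every week below. All 4 week 5 values exceeded all 4 of week 1 (log2 difference 0.73, SE 0.22, adjusted p = 0.0450), and the call was kept in 3 of 12 fits that leave out 1 array and 4 of 8 other settings. Psma1 (log2 difference 0.50, SE 0.16, adjusted p = 0.0531), Psma3 (log2 difference 0.62, SE 0.20, adjusted p = 0.0607) and Psma2 (log2 difference 0.43, SE 0.16, adjusted p = 0.0872) were also without overlap and passed once the diabetic trained array of week 3 was left out, with adjusted p-values of 0.0186, 0.00570 and 0.0146. Psma4, Psma5 and Psma7 had differences of -0.18, 0.10 and 0.10 and did not pass.

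The beta ring had 3 of 10 probe sets higher and 0 lower, among them both of its catalytic subunits with 1 probe set. Psmb6 had 211, 208, 259 and 259 at week 5, against 161, 179, 149.7 and 123 at week 1, and was higher in all 4 conditions by 0.21 to 1.08 (log2 difference 0.62, SE 0.15, adjusted p = 0.0211). Psmb7 had 243, 217, 233 and 247 at week 5, against 172, 157, 195 and 189 at week 1, also without overlap (log2 difference 0.40, SE 0.11, adjusted p = 0.0362); this call was kept in 2 of 12 fits that leave out 1 array and 6 of 8 other settings. At week 3 Psmb6 had 160.5, 189, 186 and 183 and Psmb7 172.5, 176, 185 and 198. Both subunits were thus within or near the week 1 range at week 3 and above it at week 5. Psmb5 had 215, 195.5, 269 and 223 at week 5 and 126, 165.5, 159 and 165 at week 1 on the brighter probe set (log2 difference 0.55, SE 0.18, adjusted p = 0.0542). With the diabetic trained array of week 3 left out this passed, at an adjusted p of 0.00582. On the dimmer probe set it had 37.9, 30.7, 21.8 and 25.0 at week 5 and 39.8, 42.9, 34.9 and 40.3 at week 1 (log2 difference -0.48, SE 0.28, adjusted p = 0.258), so its probe sets differed in sign. At week 3 the 2 probe sets had 82.3, 169, 179.5 and 162, and 104.5, 28.2, 28.0 and 41.0. Psmb1, a subunit of the ring without catalytic activity, had 251, 226, 253 and 253.5 at week 5 on the dimmer probe set, against 152, 168, 161 and 170.0 at week 1 (log2 difference 0.60, SE 0.13, adjusted p = 0.0126), and the brighter probe set differed by -0.16, SE 0.13.

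**Figure D4:**
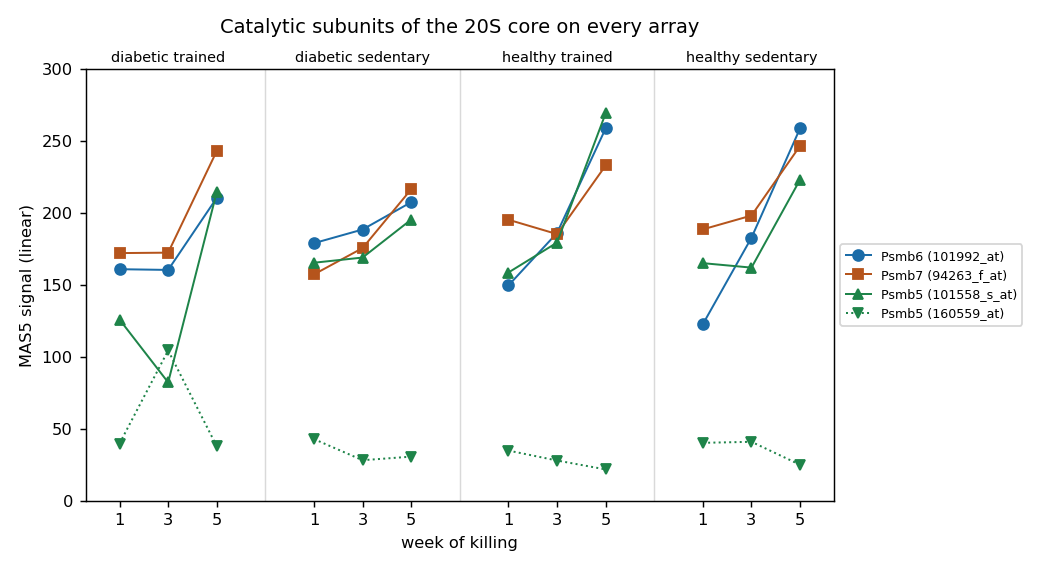
Signal (y axis, linear) of the 3 catalytic core subunits Psmb6, Psmb7 and Psmb5 on each array by week of killing (x axis), in 4 blocks for the conditions, with the second Psmb5 probe set dotted. Psmb6, Psmb7 and Psmb5 on the brighter probe set are highest at week 5 in each condition, and Psmb5 on the dimmer probe set has its highest signal, 104.5, on the diabetic trained array of week 3.

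In the regulatory particle the ATPases had 2 of 7 probe sets higher and 0 lower. Psmc6 had 820.1, 577, 610.4 and 592 at week 5, against 299, 328, 267 and 353 at week 1, and was 2.07-fold higher (log2 difference 1.05, SE 0.20, adjusted p = 0.00959). At week 3 its signals were 211, 396, 340.2 and 416, so that every week 5 array was above every array of weeks 1 and 3. Psmc3 passed on the dimmest probe set, with 89.0, 66.0, 97.8 and 90.5 at week 5, against 47.3, 57.1, 57.4 and 61.4 at week 1 (log2 difference 0.61, SE 0.17, adjusted p = 0.0316). Its other probe sets differed by 0.08, SE 0.16 on the middle probe set and 0.17, SE 0.16 on the brightest probe set, and Psmc5, Psmc1 and Psmc2 by 0.26, 0.22 and -0.02, without passing.

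The other 19S subunits split: 3 of 15 probe sets were higher and 4 lower (median 0.02). Psmd14, the deubiquitinase that strips ubiquitin chains from substrates, had 139.6, 102, 150.5 and 141 at week 5, against 59.4, 69.5, 65.9 and 77.8 at week 1 (log2 difference 0.96, SE 0.18, adjusted p = 0.00811). Its week 5 signals were above all 8 signals of weeks 1 and 3. Psmd12, a lid subunit, had 166, 119.7, 140.1 and 140.2 at week 5, against 69.8, 77.0, 83.2 and 92.7 at week 1 (log2 difference 0.81, SE 0.17, adjusted p = 0.0121). Psmd6, also of the lid, averaged 226 ± 10.6 at week 5 and 148 ± 11.9 at week 1 (SD, n = 4 each; log2 difference 0.61, SE 0.16, adjusted p = 0.0267). Without the diabetic trained array of week 3, Psmd5 (0.77, adjusted p = 0.0300), Psmd7 (0.36, adjusted p = 0.0193) and Psmd13 (0.44, adjusted p = 0.0478) passed as higher too.

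Among the lower ones, Psmd11 had 204, 214, 244 and 286 at week 5 on the brightest probe set, against 353, 427, 369 and 331 at week 1 (log2 difference -0.65, SE 0.16, adjusted p = 0.0238). At week 3 its signals were 162, 299, 226 and 209, and the difference of week 3 from week 1 was -0.75, SE 0.16 (adjusted p = 0.364), the smallest unadjusted p of the members there. Its dimmest probe set had 8.40, 9.20, 5.70 and 13.4 at week 5, against 14.0, 42.2, 31.1 and 40.7 at week 1. The 4 week 5 signals were all under 13.8, the highest control signal, so that they were at least 2.13-fold lower (adjusted p = 0.0440), a call kept in 3 of 12 fits that leave out 1 array and 2 of 7 other settings. On the middle probe set the difference was 0.10, SE 0.15. Psmd3 averaged 144 ± 19.8 at week 5 and 211 ± 18.8 at week 1 (log2 difference -0.56, SE 0.13, adjusted p = 0.0153). Psmd1 averaged 218 ± 35.8 at week 5 and 304 ± 25.1 at week 1 (log2 difference -0.49, SE 0.15, adjusted p = 0.0484), and its call was kept in 2 of 12 fits that leave out 1 array and 4 of 8 other settings. None of these lower calls was left when arrays were centred on their medians. Psmd4, Psmd8, Psmd9 and Psmd10 differed by -0.15, 0.02, -0.22 and -0.06 and did not pass.

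**Figure D5:**
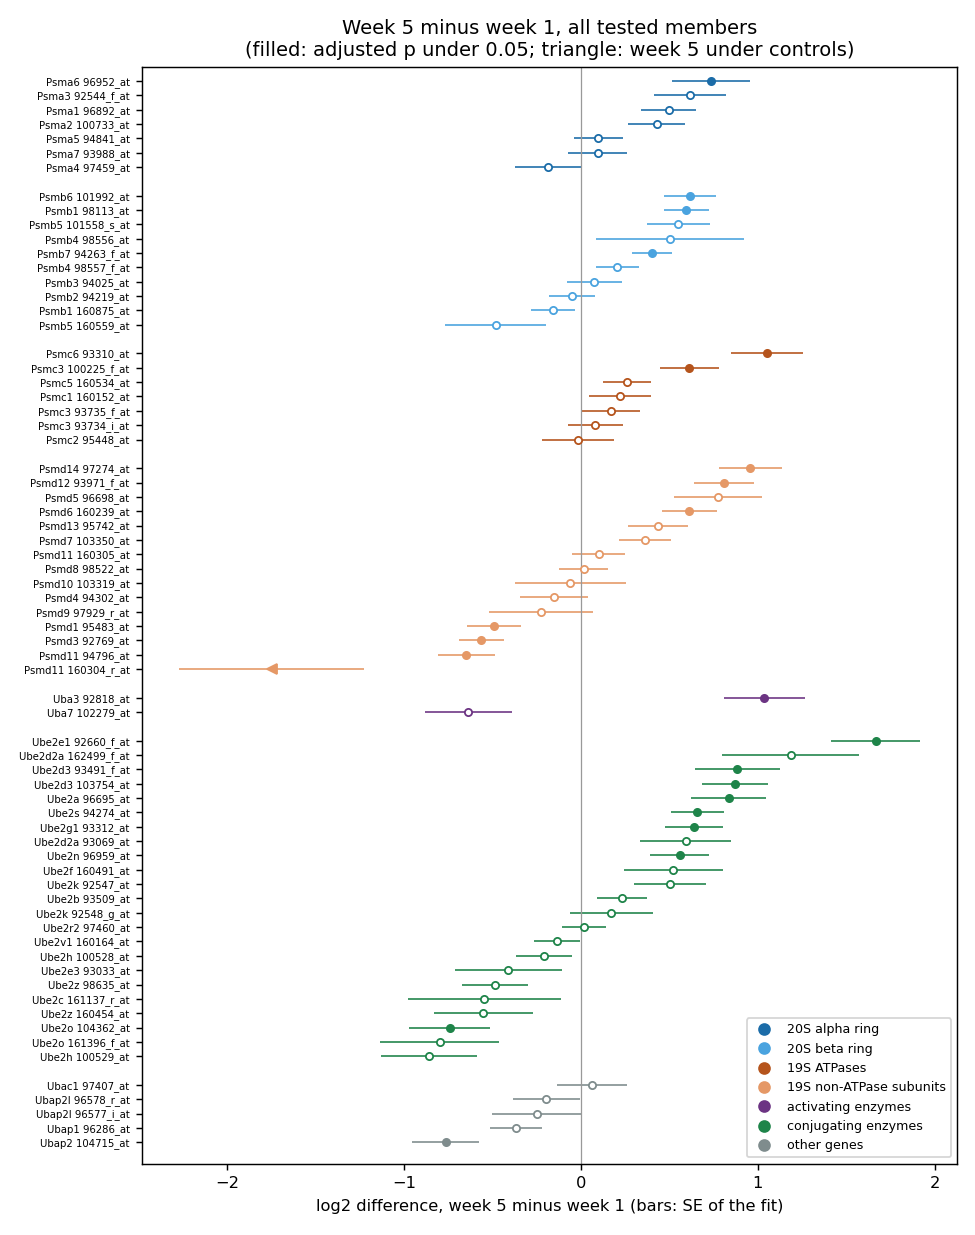
Log2 difference of week 5 minus week 1 (x axis) for each of the 69 tested members, by group and size, with the SE of the fit as bars; filled points passed an adjusted p of 0.05. The 17 higher calls lie between 0.40 (Psmb7) and 1.67 (Ube2e1) and 5 of the 6 lower calls between -0.49 (Psmd1) and -0.76 (Ubap2). The sixth, Psmd11 on the dimmest probe set, is drawn as a triangle at its fitted value, which is no measured size because its week 5 signals are under the highest control signal.

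Uba3 was the activating enzyme that passed, with 90.5, 75.7, 99.2 and 74.2 at week 5, against 28.3, 43.2, 39.3 and 59.3 at week 1, higher in 4 of 4 conditions (log2 difference 1.04, SE 0.23, adjusted p = 0.0142). Uba7 had 31.3, 42.5, 34.0 and 34.0 at week 5, against 68.8, 71.9, 51.5 and 35.2 at week 1, lower in each condition and without passing (log2 difference -0.64, SE 0.25, adjusted p = 0.0970).

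The conjugating enzymes had 7 of 23 probe sets higher and 1 lower, with a median of 0.23. Ube2e1, one of a family of conjugating enzymes with a long N-terminal extension, had the largest log2 difference among the higher calls: 76.7, 48.5, 61.9 and 58.8 at week 5, against 13.2, 23.3, 18.4 and 23.5 at week 1 (3.18-fold; log2 difference 1.67, SE 0.25, adjusted p = 0.00364). At week 3 its signals were 19.3, 31.4, 22.9 and 22.0, and all 4 values of week 5 were above all 8 of weeks 1 and 3. Its probe set can share probes with related sequences, and that of its relative Ube2e3 differed by -0.41, SE 0.30. Of the other calls over all 12 arrays, those of Psmb7, Psmd12, Psmc3 and the dimmer Ube2d3 probe set rest on the same kind of probe set. Ube2d3, an enzyme that works with many ligases, rose on both probe sets, with 257.5, 205, 329.8 and 222 at week 5, against 123, 145, 119 and 164 at week 1 on the brighter probe set (log2 difference 0.87, SE 0.19, adjusted p = 0.0128) and a difference of 0.89, SE 0.24 on the dimmer probe set. For its close relative Ube2d2a the differences were 0.59, SE 0.26 on the brighter probe set and 1.19, SE 0.39 on the dimmer probe set, which passed with the diabetic trained array of week 3 left out, at an adjusted p of 0.0303.

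Ube2a had 50.6, 34.8, 56.7 and 48.5 at week 5, against 23.9, 18.9, 30.7 and 34.5 at week 1 (log2 difference 0.83, SE 0.21, adjusted p = 0.0254). Its relative Ube2b differed by 0.23, SE 0.14. Ube2n averaged 159.7 ± 9.27 at week 5 and 109 ± 13.1 at week 1 (log2 difference 0.56, SE 0.17, adjusted p = 0.0433), and its call was kept in 3 of 12 fits that leave out 1 array and 3 of 8 other settings. Its cofactor Ube2v1 differed by -0.13, SE 0.13. Ube2s, which lengthens ubiquitin chains in mitosis, averaged 88.5 ± 14.1 at week 5 and 55.8 ± 5.82 at week 1 (log2 difference 0.66, SE 0.15, adjusted p = 0.0155). Ube2c, which starts those chains, differed by -0.54, SE 0.43. Ube2g1, an enzyme of degradation from the endoplasmic reticulum, averaged 325 ± 40.1 at week 5 and 209 ± 34.2 at week 1 (log2 difference 0.64, SE 0.17, adjusted p = 0.0272). The lower call was Ube2o on the brighter probe set, with 53.8, 51.3, 53.8 and 71.5 at week 5, against 91.8, 82.0, 109 and 100.5 at week 1 (log2 difference -0.74, SE 0.23, adjusted p = 0.0486); it was kept in 1 of 12 fits that leave out 1 array and 2 of 8 other settings. With the diabetic trained array of week 3 left out, Ube2k passed as higher on the dimmer probe set (adjusted p = 0.0495), and Ube2h on the dimmer probe set (0.0175) and Ube2o on the dimmer probe set (0.0498) passed as lower. Ube2r2, a partner of cullin ligases, differed by 0.02, SE 0.13. Ube2v2, which did not reach the filter, had 31.2, 15.2, 32.2 and 19.2 at week 5 and 8.20, 8.80, 8.70 and 10.4 at week 1 on the brighter probe set; it was not tested and is named here after its values were seen.

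Of the other genes 0 of 5 probe sets were higher and 1 lower. Ubap2, a protein with a ubiquitin-associated domain, had 57.8, 84.8, 61.0 and 86.0 at week 5, against 106, 113, 134.5 and 132 at week 1 (log2 difference -0.76, SE 0.19, adjusted p = 0.0241), and its call was lost when arrays were centred on their medians. Ubap1 differed by -0.37, SE 0.15, Ubac1 by 0.06, SE 0.20 and Ubap2l by -0.25, SE 0.26 on the dimmer probe set and -0.19, SE 0.19 on the brighter probe set.

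Without regard to the model, 24 members had all 4 signals of week 5 above all 4 of week 1 (34.8%, against 14.9% of all tested probe sets), and 8 had them all below (11.6%, against 16.4%). All signals of week 5 were above all 8 of weeks 1 and 3 for 20 members (29%, against 9.28%) and below them for 3 (4.35%, against 7.47%). For week 3 against week 1, the members of smallest unadjusted p after Psmd11 were Psmd5 (0.91, SE 0.25), Psmb4 on the dimmer probe set (1.26, SE 0.42) and Psma4 (-0.49, SE 0.19, and -0.27 without the array), with adjusted p-values of 0.593, 0.632 and 0.673. The Psmb4 size is not exact. Its week 1 signals in healthy trained, diabetic sedentary and healthy sedentary hearts, 3.4, 8.9 and 12, were under the highest control signal, and the first was below the floor.

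Several probe sets of a gene did not always go the same way. Of 15 member genes with more than 1 probe set, 12 had more than 1 tested: Psmb1, Psmb4, Psmb5, Psmc3, Psmd11, Ubap2l, Ube2d2a, Ube2d3, Ube2h, Ube2k, Ube2o and Ube2z. Signs differed within 3 genes for week 5 against week 1 (Psmb1, Psmb5 and Psmd11), within 8 for diabetes and within 6 for training. No gene had week 5 calls in both directions. For Psmb4 the brighter probe set differed by 0.21, SE 0.12 and the dimmer probe set by 0.51, SE 0.42. The size on the dimmer Psmb4 probe set is not exact, because of the same week 1 signals. For Ube2k the dimmer probe set differed by 0.50, SE 0.20 and the brighter probe set by 0.17, SE 0.23. Ube2z differed by -0.48, SE 0.18 on the brighter probe set and -0.55, SE 0.28 on the dimmer probe set.

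Other genes of the pathway were read as lists, of which 60 genes were tested out of 64 on the array. The lists were chosen with earlier results of these data known. For week 5 against week 1, 8.47% of all probe sets were higher and 6.9% lower, and the immunoproteasome and the proteasome activators had 0 of 6 genes higher and 2 lower. These were Psmb8, an inducible catalytic subunit (56.9 ± 6.27 at week 5 and 134 ± 71.9 at week 1, SD, n = 4 each; -1.06, SE 0.26, adjusted p = 0.0211), and Psmb10 (-0.52, SE 0.14, adjusted p = 0.0296), the inducible replacements of Psmb5 and Psmb7. The E3 ligases had 4 of 16 higher and 0 lower, led by Skp1 (301 ± 29.6 at week 5 and 123 ± 12.9 at week 1; 1.29, SE 0.16, adjusted p = 0.00147) and Cul2 (1.13, SE 0.14, adjusted p = 0.00174), parts of cullin-RING ligases. Assembly factors and receptors had 1 of 11 higher and 0 lower, the proteasome-bound deubiquitinase Uchl5 (1.24, SE 0.30, adjusted p = 0.0210). The deubiquitinating enzymes had 2 of 13 higher, the proteasome-bound Usp14 (0.93, SE 0.16, adjusted p = 0.00677) and Usp15 (0.75, SE 0.22, adjusted p = 0.0400), and 1 lower, Usp19 (-0.61, SE 0.18, adjusted p = 0.0447). The segregase Vcp and its partners had 0 of 3 called, with Vcp at -0.37, SE 0.13, adjusted p = 0.0757. Autophagy genes had 1 of 11 higher, Bnip3 (0.54, SE 0.16, adjusted p = 0.0466), and 1 lower, Gabarapl1 (-0.46, SE 0.13, adjusted p = 0.0345). The list of ubiquitin genes had no probe set with 1 symbol and was not analysed here.

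For diabetes none of these lists had a gene called over all 12 arrays. The smallest p-values were those of Bnip3, a mitophagy receptor (253 ± 52.9 in diabetic and 164 ± 48.2 in healthy hearts, SD, n = 6 each; 0.65, SE 0.13, adjusted p = 0.0533), Gabarapl1 (0.32, SE 0.10, adjusted p = 0.216) and Psmb8 (0.64, SE 0.21, adjusted p = 0.245). With the diabetic trained array of week 3 left out, 3 of 11 autophagy genes were higher in diabetic hearts, where 1.4% of all probe sets were: Map1lc3b (0.48, SE 0.09, adjusted p = 0.0242), Gabarapl1 (0.40, SE 0.08, adjusted p = 0.0322) and Bnip3 (0.66, SE 0.14, adjusted p = 0.0337). The autophagy list too was chosen with earlier results known, so its count beside that of all probe sets is no test of the list. Training called no gene of any list. Next in the lists for diabetes were Psme1 (-0.19, SE 0.12, adjusted p = 0.598), Ubqln2 (0.45, SE 0.18, adjusted p = 0.347), Siah1a (0.50, SE 0.25, adjusted p = 0.478, and 0.27 without the array) and Usp19 (-0.39, SE 0.15, adjusted p = 0.327). For training they were Psme3 (-0.58, SE 0.28, adjusted p = 0.998, and -0.24 without the array), Usp19 (-0.32, SE 0.15, adjusted p = 0.998, and -0.20 without the array), Stub1 (-0.31, SE 0.16, adjusted p = 0.998, and -0.14 without the array) and Gabarapl1 (-0.24, SE 0.10, adjusted p = 0.998).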

How the data were processed

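RNA of cardiac muscle, pooled from 5 mice an array, was hybridised to 12 arrays. The deposited values are linear signal intensities. The submitters' processing notes name MAS5, but its version is not given in the sources used here. The 2% trimmed mean was near 50.0 on each array. Chip lot, fluidics module and run day came from the deposited experiment files. Symbols came from the platform annotation, updated through the Entrez gene identifier. Values below 4.1, the 20th percentile, were raised to it, and log2 was taken. Probe sets at or above the 40th percentile of mean log2 signal (geometric mean 11.6) were kept, which left 7453.

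All 12 arrays were fitted with condition and week as factors (6 residual degrees of freedom, 5 without the diabetic trained array of week 3) by limma 3.58.1 in R 4.3.3, with an intensity trend. Benjamini-Hochberg adjustment ran over all tested probe sets, with a threshold of 0.05. Week was a block because mice of a week were killed together, per the labels. Deviations of same-week arrays correlated at 0.0797 to 0.64 (18 pairs, median 0.272), against -0.452 to 0.246 (36 pairs, median -0.214) for different weeks. The number of arrays limits the precision. The fit was also run on simulated data with independent noise on each array. These data held no outlying array and, beyond the set changes, no deviation shared by a week. The run therefore cannot show how far the calls here hold. Where every array of a group was under 13.8, the highest unspiked control signal, the fold is a bound: the other group's geometric mean over that signal.

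Members named are those past the threshold with or without that array, the 3 of smallest p in each group for diabetes and for training, the 4 of smallest p in each other comparison, the brightest and dimmest of each group, the genes with several probe sets and the catalytic subunits; others are given beside their relatives. Members and lists were chosen with earlier results of these data known. Psmc3ip was moved to the other genes by its name. Alternatives were another scaling, floor or filter, no trend, array weights, no week term and the 6 arrays of a pair alone. Others were 1 probe set a gene, no probe sets marked f, s, r, g or i in their name, the annotation's own symbols, and leaving out arrays or weeks.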

Additional observations from a re-analysis of the deposited data

Results flagged for a closer look

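In 9 of 90 groups of 4 or 6 arrays, 1 array lay far from the others (a gap to its nearest neighbour that was large against the group's range); chance flags about 1 in 20 such groups. Among diabetic arrays the median log2 deviation of the 19S ATPases was -0.785 on the diabetic trained array of week 3 and -0.157 to 0.150 on the others. On the same array Psmb5 (dimmer probe set) had a signal of 104.5, against 28.2 to 42.9 on the other diabetic arrays.

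Among week 1 arrays the ATPases stood highest in healthy sedentary hearts, at -0.0497, with the others at -0.157 to -0.147. The activating enzymes, with 2 probe sets, stood highest in diabetic sedentary hearts at week 1, at 0.175, with the others at -0.162 to -0.112. The core and regulatory particle stood lowest in diabetic trained hearts at week 1, at -0.157, with the others at -0.0703 to -0.0537.

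At week 5 Psmb1 (dimmer probe set) was lowest in diabetic sedentary hearts, at 226.4, with 251.4 to 253.5 elsewhere, and Psmc6 was highest in diabetic trained hearts, at 820.1, with 577.1 to 610.4 elsewhere. Ube2o (brighter probe set) was highest in healthy sedentary hearts at week 5, at 71.5, with 51.3 to 53.8 elsewhere, and Ube2s in healthy trained hearts, at 109.5, with 80.2 to 84.0 elsewhere.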

How the results depend on the processing

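The number of members past the threshold was 0 under every setting run for the comparisons of conditions and for week 3 against week 1. For week 5 against week 1 it was 23, and 22 with no replicate block (week left out of the fits of conditions, condition left out of those of weeks); dropping the block changed no other count of calls. It was, with the share of all tested probe sets called under the same setting in brackets, 9 (5.23%) with no filter, 27 (24.3%) with the stricter filter, 14 (11.1%) without the intensity trend, 39 (36.0%) with array weights, 18 (10.7%) on arrays centred on their medians and 20 (12.8%) after quantile normalization. The number of members tested was 85 with no filter, of which 10.6% were called, and 59 with the stricter filter, of which 45.8% were called. It was 70 after quantile normalization, of which 28.6% were called. When 1 array was left out the count of members called was 4 to 34 (3.65% to 32.3%). The cause of these shifts was not tested. Repeating the settings for each member called at week 5 was decided after seeing the data.

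Some differences that passed no test changed sign. For diabetes, Psma2 was -0.0012 and Uba7 -0.153 without week 1. Leaving out 1 array gave ranges of -0.0089 to 0.186 for Psma2, -0.199 to 0.0338 for Psmc1 and -0.0356 to 0.294 for Uba7. For training without week 3, Psma6 was 0.0058, Psma4 0.0254, Psmb5 (dimmer probe set) -0.0524, Psmb4 (dimmer probe set) -0.162 and Uba7 0.0110. Uba3 was 0.221 without week 1 and Uba7 0.0583 without week 5, and with array weights Psma4 was 0.0156 and Psmb5 (dimmer probe set) -0.0670. Leaving out 1 array for training gave -0.234 to 0.0295 for Psma4, -0.0481 to 0.375 for Psmb5 (dimmer probe set), -0.179 to 0.112 for Uba3 and -0.210 to 0.120 for Uba7. Fits without week 1 or week 5 give no value for the comparison of these weeks. Dim probe sets and 1 pool an array limit what these data can show.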
